A study of Mus musculus with 10 samples.

Results

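The genes described here are 10 heavy chains of MHC class I in the mouse. They are the classical chains H2-K1 and H2-D1 and the nonclassical chains H2-Q1, H2-Q2, H2-Q4, H2-Q7, H2-T3, H2-T10, H2-T22 and H2-T23, and they were taken by symbol from a table of 13932 genes. All 10 were in the table, and all 10 passed the filter on low counts. RNA was sequenced from live epithelial cells of the ileum, the distal small intestine, which were sorted for EpCAM, found on epithelium, and against CD45, found on leukocytes, with 400000 cells per library and 1 mouse per library. The 5 dIEC mice (males 1, 3 and 5, females 7 and 9) were H2-Ab1 fl/fl with Villin:Cre+ in the sample labels, so that Cre recombinase, made under the villin promoter of intestinal epithelial cells, was to delete H2-Ab1, which encodes the beta chain of an MHC class II molecule. The 5 WT mice (males 2, 4 and 6, females 8 and 10) were H2-Ab1 fl/fl with Villin:Cre-, so the controls carried the floxed gene too. The series text gives Cre- for both genotypes, and the sample labels were followed. Since all dIEC mice and no WT mouse carried Cre, the deletion and the presence of Cre cannot be told apart.

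A class I molecule is a heavy chain that is held at the cell surface with the light chain beta-2 microglobulin. The classical chains H2-K and H2-D bind peptides made by the proteasome and carried into the endoplasmic reticulum by the TAP transporter, and show them to CD8 T cells. Nonclassical chains vary less between mouse strains and have narrower tasks. H2-T3 encodes the thymus leukaemia antigen, which is known on mouse small intestinal epithelium and binds CD8 alpha homodimers of intraepithelial lymphocytes. H2-T23 encodes Qa-1, which presents leader peptides of other class I chains to CD94-NKG2 receptors, H2-Q7 encodes a Qa-2 antigen, and H2-T10 and H2-T22 encode ligands of some gamma delta T cells. Transcription of many class I genes is raised by interferon, through interferon regulatory factors, and by NLRC5, the class I transactivator.

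The libraries held 9174101 to 13484363 counts each. H2-Ab1, the targeted gene, had 0.767 to 3.10 CPM (counts scaled to library size) in dIEC libraries, against 63.1 to 366 CPM in WT libraries, so every library matched its label, and it fell with a log2 fold change of -6.40 (SE 0.51, edgeR adjusted p = 0.000735). All 10 genes of an epithelial list (Epcam, Vil1, Cdx2 and others) were in the table, with summed levels of 11320 to 16500 CPM in dIEC and 10960 to 14230 CPM in WT. Of 20 leukocyte markers 3 were in the table (summed level 11.97 to 19.0 CPM in dIEC, 8.66 to 18.1 CPM in WT), and of 12 markers of stroma and endothelium 4 were (5.11 to 6.60 CPM in dIEC, 4.58 to 6.70 CPM in WT); the other markers of both lists were not analysed here. The mean log2 CPM of 26 proliferation genes, called the proliferation score below, was lowest in dIEC female 7 (2.97) and WT female 10 (3.30) and highest in dIEC female 9 (5.60). Of 6 erythroid genes 5 were in the table, with summed levels of 13.7 to 28.4 CPM in dIEC and of 13.2 to 23.99 CPM in the WT males, but of 0.0 in WT female 8 and 0.18 CPM in WT female 10. Nothing in the labels names a sequencing batch.

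All 10 chains lie in the MHC on chromosome 17 of mm10. In GENCODE coordinates on that build, H2-K1 (ENSMUSG00000061232) spans chr17:33996017-34000347 on the minus strand, apart from the others. H2-D1 (ENSMUSG00000073411; chr17:35262730-35267499) is followed by the H2-Q genes on the plus strand, ending with H2-Q7 (ENSMUSG00000060550; chr17:35439155-35443773). The H2-T genes lie further on, all on the minus strand, between the start of H2-T23 (ENSMUSG00000067212) at 36029773 and the end of H2-T3 (ENSMUSG00000054128) at 36190287. The annotation gives 9 of the 10 as protein coding and H2-T10 (ENSMUSG00000079491) as a polymorphic pseudogene. H2-Q4 (ENSMUSG00000035929), H2-T10, H2-T22 (ENSMUSG00000056116) and H2-T23 each overlap another gene model on the other strand, and H2-T10 also overlaps Gm7030 on its own strand.

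The chains are also alike in sequence, which matters for counts because the counting program is not given in the sources used here. Of the distinct 50-base words in the transcripts of H2-T10, 32.9% also occur in transcripts of another gene, 31.7% in those of H2-T22. For H2-T22 the share was 34.5%, for H2-Q7 26.4%, for H2-Q4 21.8%, and for H2-Q2 (ENSMUSG00000091705) 16.1%, mostly with H2-Q1 (ENSMUSG00000079507). For H2-T3 it was 0.894%, the lowest of the 10. Values of H2-T10, H2-T22, H2-Q4 and H2-Q7 are therefore the least certain.

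The stretch of 250 bases before the annotated transcript start was read from the RefSeq table of GRCm38.p6 for 8 of the 10 chains, and none was used for H2-Q1 and H2-T10. For H2-K1, which has 2 starts in that table, the first was taken. The windows of 6 chains are shown 5′ to 3′ on the strand of the gene, to set the classical chains and H2-Q4 beside 3 chains of the Q and T regions whose windows share less with theirs. Capitals mark runs of at least 12 bases that also occur in the window of another of the 8 chains.
H2-K1 (chr17:34000348-34000597, minus strand): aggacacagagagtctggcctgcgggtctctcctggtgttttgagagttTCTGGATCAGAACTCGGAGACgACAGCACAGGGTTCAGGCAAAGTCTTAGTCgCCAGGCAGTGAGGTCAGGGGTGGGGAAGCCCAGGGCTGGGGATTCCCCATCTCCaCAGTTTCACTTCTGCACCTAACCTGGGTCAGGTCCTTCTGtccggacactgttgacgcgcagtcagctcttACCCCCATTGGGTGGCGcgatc
H2-D1 (chr17:35262844-35263093, plus strand): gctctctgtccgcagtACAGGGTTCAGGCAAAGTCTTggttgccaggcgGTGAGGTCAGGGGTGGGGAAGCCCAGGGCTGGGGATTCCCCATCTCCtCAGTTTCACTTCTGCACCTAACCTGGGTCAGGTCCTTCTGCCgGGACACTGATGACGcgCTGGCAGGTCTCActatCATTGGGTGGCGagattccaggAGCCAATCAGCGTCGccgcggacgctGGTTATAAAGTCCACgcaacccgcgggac
H2-Q4 (chr17:35379367-35379616, plus strand): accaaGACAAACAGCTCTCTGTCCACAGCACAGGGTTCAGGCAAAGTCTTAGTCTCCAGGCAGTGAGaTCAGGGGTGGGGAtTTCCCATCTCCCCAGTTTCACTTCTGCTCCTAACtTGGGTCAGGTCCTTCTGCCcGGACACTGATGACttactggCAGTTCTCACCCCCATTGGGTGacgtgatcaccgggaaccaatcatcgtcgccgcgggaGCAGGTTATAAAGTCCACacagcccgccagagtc
H2-T23 (chr17:36032702-36032951, minus strand): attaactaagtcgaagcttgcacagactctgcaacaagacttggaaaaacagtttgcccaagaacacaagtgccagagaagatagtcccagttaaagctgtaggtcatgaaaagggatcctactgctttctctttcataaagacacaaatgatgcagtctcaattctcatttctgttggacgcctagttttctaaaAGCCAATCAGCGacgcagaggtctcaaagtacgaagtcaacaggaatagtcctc
H2-Q2 (chr17:35342057-35342306, plus strand): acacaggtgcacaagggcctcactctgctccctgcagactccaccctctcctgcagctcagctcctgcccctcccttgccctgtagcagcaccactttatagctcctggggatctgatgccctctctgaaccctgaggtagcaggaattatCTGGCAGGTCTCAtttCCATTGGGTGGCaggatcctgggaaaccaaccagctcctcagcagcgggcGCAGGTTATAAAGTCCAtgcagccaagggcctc
H2-T3 (chr17:36190152-36190401, minus strand): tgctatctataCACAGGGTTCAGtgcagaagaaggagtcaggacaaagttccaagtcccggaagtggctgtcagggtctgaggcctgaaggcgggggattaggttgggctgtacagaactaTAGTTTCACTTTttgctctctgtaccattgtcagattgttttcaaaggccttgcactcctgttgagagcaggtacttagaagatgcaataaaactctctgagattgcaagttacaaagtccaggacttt
Such runs covered 64.8% of the window of H2-K1, 71.6% of that of H2-D1, 72.4% of that of H2-Q4 and 70.0% of that of H2-Q7. They covered 16.8% in H2-Q2, 9.6% in H2-T3 and 4.8% each in H2-T22 and H2-T23. Only the longest run of each pair of windows was ranked. The highest were 47 bases in H2-K1 and H2-D1, 34 in H2-Q4 and H2-Q7, and 30 in H2-K1 and H2-Q4. By their longest shared runs, the windows of H2-Q4 and H2-Q7 were thus closer to those of the classical chains than the windows of H2-Q2 or of the T-region chains were. The RefSeq starts do not all match the GENCODE spans. The window of H2-D1 lies inside the GENCODE span of its gene, and those of H2-Q2, H2-T3, H2-T22 and H2-T23 lie partly inside theirs. The shares therefore depend on the start used, and other starts were not tried. This way of marking the windows was picked after the sequences had been seen, and a shared run is not a binding site.

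**Figure D1:**
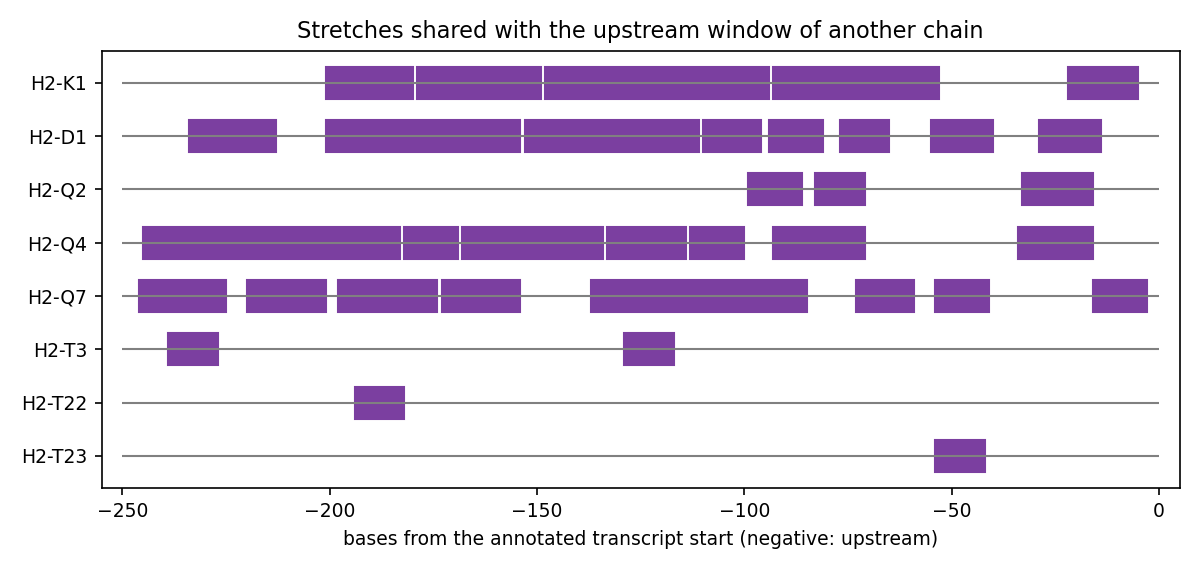
Runs of at least 12 bases shared with the upstream window of another chain, for 8 class I heavy chains, by distance in bases from the annotated transcript start. Grey lines are the windows of 250 bases and boxes the shared runs. Boxes fill most of the windows of H2-K1, H2-D1, H2-Q4 and H2-Q7 (64.8% to 72.4%) and little of those of the T-region chains (4.8% to 9.6%).

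The first question was which chains dominate the epithelium. Levels were compared between genes as CPM per kilobase of exon (the union of exons of the gene), with libraries scaled by TMM (trimmed mean of M values), averaged over all 10 libraries. H2-K1 was highest, at 422 ± 153 CPM per kilobase (SD, n = 10), and held 33.1% of the summed level of the 10 chains. H2-D1 followed at 301 ± 98.5 (SD, n = 10), a share of 23.9%, and H2-Q2 at 287 ± 100.1 (SD, n = 10), a share of 22.6%. These 3 chains made up 79.6% ± 0.792 of the summed level in dIEC and 79.7% ± 0.672 in WT (SD, n = 5 each). The share of both classical chains together was 58.3% ± 2.48 in dIEC and 55.9% ± 2.48 in WT (SD, n = 5 each).

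H2-T3 and H2-T23 came next. H2-T3, the thymus leukaemia antigen, stood at 122 ± 33.6 CPM per kilobase and held 9.75% of the sum, and H2-T23, the Qa-1 chain, stood at 53.9 ± 21.0 (SD, n = 10 each). H2-Q1 was at 47.9 ± 16.5 and H2-Q4 at 20.9 ± 7.97 CPM per kilobase (SD, n = 10 each). The gamma delta T cell ligands H2-T22 (6.18 ± 1.11) and H2-T10 (1.75 ± 0.554) and the Qa-2 chain H2-Q7 (3.17 ± 1.63 CPM per kilobase; SD, n = 10 each) were the lowest, and H2-T10 rested on 33 to 111 counts per library.

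Neighbours in this order differed in the same direction in all 10 libraries, except in 2 places. H2-D1 was above H2-Q2 in 6 of 10 libraries, with a mean log2 ratio of 0.089 ± 0.27, and H2-T23 was above H2-Q1 in 8 of 10, with a mean log2 ratio of 0.16 ± 0.38 (SD, n = 10 each). With the longest annotated transcript as the length, H2-Q2 (496.5 CPM per kilobase) stood above H2-D1 (369 CPM per kilobase), so the order of these chains depends on the length used. One class I gene outside the 10, H2-Bl, chosen after its values were seen, had 277 to 1054 CPM in dIEC and 283 to 841 CPM in WT. In CPM, not divided by length, this was in the range of H2-Q2. Its place in the order per kilobase was not computed, and it is not in the shares.

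**Figure D2:**
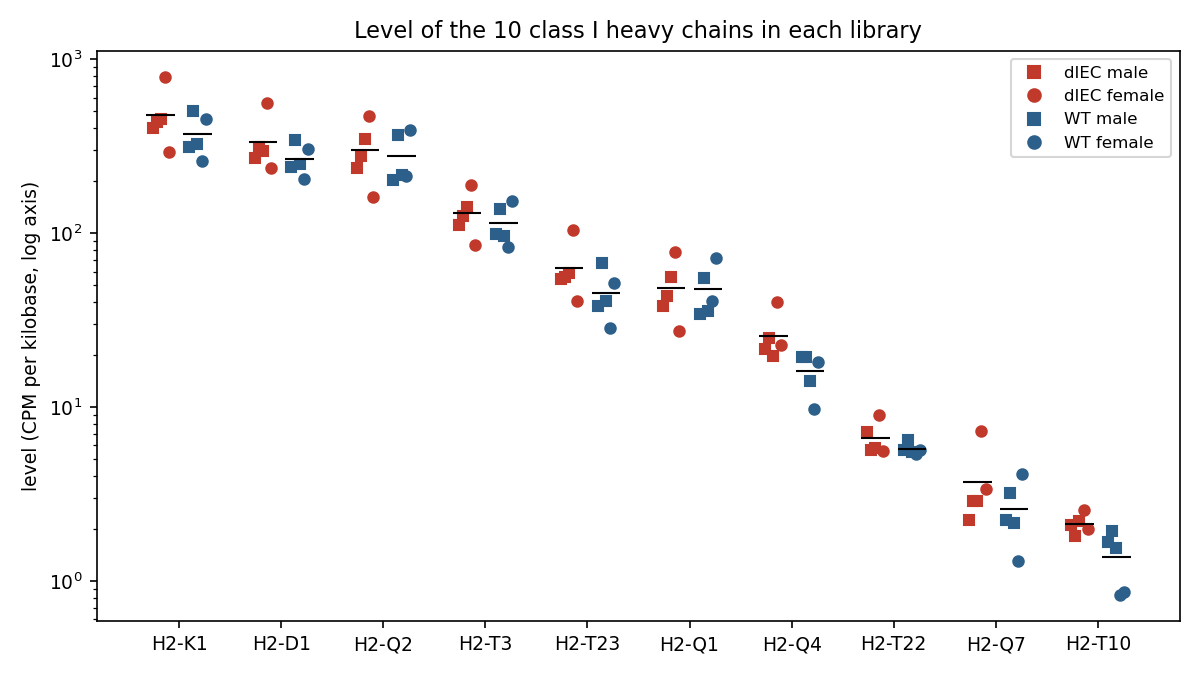
Level of each chain in CPM per kilobase of exon on a log axis, chains ordered by their mean. Each point is 1 library (squares males, circles females), dIEC to the left of WT, and black lines are group means. H2-K1, H2-D1 and H2-Q2 lie above the rest in every library, and dIEC female 7 is the highest library for every chain.

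The second question was whether the chains differed between dIEC and WT. None of the 10 passed the test, with an edgeR adjusted p of 0.99992 for each, where 2 of 13286 genes passed (0.0151%). All 10 fitted log2 fold changes were above 0, as were 52.6% of all tested genes, and their median was 0.33 against 0.014 over all tested genes. The median depended most on 1 mouse. Without dIEC female 7 it was 0.065, with 8 of 10 above 0, and without WT female 8 it was 0.17, with 9 of 10 above 0. In the 6 males alone it was 0.16, with 10 of 10 above 0. In the male contrast of the model with all libraries, 48.1% of all tested genes were above 0. Since these are bulk samples, fewer cells of a type and less RNA per cell cannot be told apart in any of these values.

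Among the classical chains, H2-K1 had 1183, 1269, 1325, 2323 and 861 CPM in dIEC mice 1, 3, 5, 7 and 9, against 922, 1468, 947, 760 and 1334 CPM in WT mice 2, 4, 6, 8 and 10. The groups overlapped, and only dIEC female 7 lay above the highest WT library. The log2 fold change was 0.35 (SE 0.29). H2-D1 had 696, 803, 765, 1430 and 611 CPM in the same dIEC mice, against 619, 884, 638, 524 and 787 CPM in WT mice (log2 fold change 0.30, SE 0.25), with the same mouse standing apart. Without it the fold changes were 0.057 for H2-K1 and 0.040 for H2-D1.

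In the Q region, H2-Q2 had 517, 601, 756, 1021 and 350 CPM in dIEC, against 439, 796, 468, 463 and 855 CPM in WT, and H2-Q1 had 109, 124, 159, 221 and 78.3 CPM in dIEC, against 98.2, 157, 102, 117 and 205 CPM in WT. Both dIEC females were at opposite ends, and the group means nearly met (log2 fold change 0.11, SE 0.31, for H2-Q2 and 0.037, SE 0.28, for H2-Q1). H2-Q7 ran from 9.5 to 30.9 CPM in dIEC and from 5.52 to 17.6 CPM in WT, with a log2 fold change of 0.44 (SE 0.34). The highest H2-Q7 value was again that of dIEC female 7.

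H2-Q4, a nonclassical chain, was the 1 member whose groups did not overlap. It had 56.0, 64.7, 50.7, 104 and 58.7 CPM in dIEC, against 50.04, 50.3, 36.4, 25.3 and 46.8 CPM in WT. All dIEC libraries were above all WT libraries for 0.181% of tested genes. The margin between the groups was small, 50.7 against 50.3 CPM, and without TMM scaling, by library size only, the groups overlapped, with 48.3 CPM as the lowest dIEC value and 57.4 CPM as the highest WT value. The log2 fold change was 0.66 (SE 0.25, edgeR unadjusted p = 0.0215), which did not hold after adjustment.

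In the T region, H2-T3 had 304, 341, 383, 515 and 231 CPM in dIEC, against 270.5, 374, 264, 226 and 416 CPM in WT (log2 fold change 0.20, SE 0.24). H2-T23 had 156, 162, 170.4, 300.5 and 118 CPM in dIEC, against 109, 193, 117, 82.6 and 148 CPM in WT (log2 fold change 0.47, SE 0.29). H2-T22 ran from 19.1 to 30.5 CPM in dIEC and from 18.4 to 22.02 CPM in WT, the narrowest spread of the 10 (coefficient of variation over the 10 libraries 17.98%). For all 3 chains the dIEC and WT libraries overlapped.

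H2-T10 had 7.20, 6.20, 7.58, 8.75 and 6.78 CPM in dIEC, against 5.71, 6.62, 5.32, 2.85 and 2.96 CPM in WT. Its dIEC values were close together, 4 of 5 of them above the highest WT library, and both WT females were far below every other library. These were also the 2 libraries at 0.0 and 0.18 CPM of erythroid genes, against at least 13.2 CPM in every other library, and the part of this difference in the H2-T10 values was not tested. The log2 fold change was 0.70 (SE 0.25, edgeR unadjusted p = 0.0169). H2-Q4 and H2-T10 were the 2 of 10 members with an unadjusted p under 0.05, as were 2.97% of all tested genes. With any 1 library left out, their log2 fold changes were at least 0.46 and 0.57. None of those fits leaves out both WT females, so they cannot show whether the difference rests on that pair. Within males the log2 fold changes were 0.33 (SE 0.28) for H2-Q4 and 0.25 (SE 0.24) for H2-T10. H2-T10 shares 31.7% of its 50-base words with H2-T22, whose own fold change was 0.21 (SE 0.16).

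**Figure D3:**
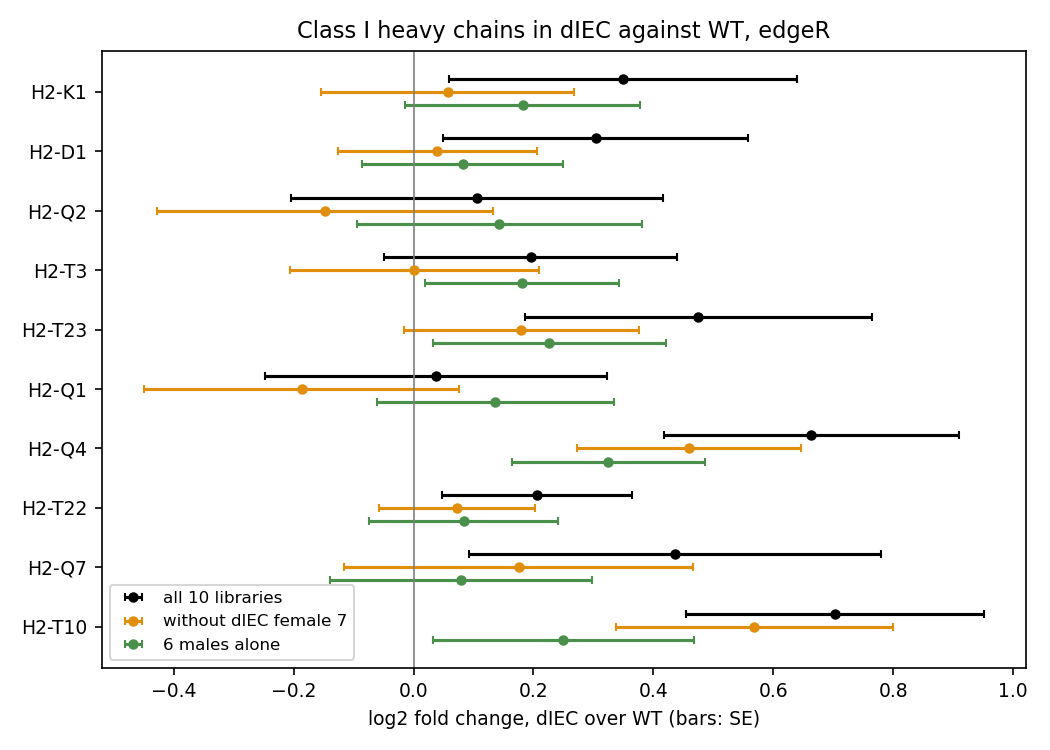
Log2 fold change of each chain in dIEC over WT with its standard error, from all 10 libraries, without dIEC female 7, and from the 6 males alone. With all libraries the 10 estimates lie between 0.037 and 0.70. Without dIEC female 7 those of H2-Q2 and H2-Q1 lie below 0 and that of H2-T3 at 0.0015, while H2-Q4 and H2-T10 remain the highest.

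Within the sexes H2-T10 and H2-Q4 had the highest fold changes of the 10 in females. The female log2 fold change of dIEC over WT was 1.41 for H2-T10 (SE 0.30, edgeR adjusted p = 0.459) and 1.17 for H2-Q4 (SE 0.35, edgeR adjusted p = 0.939), against 0.25 (SE 0.24) and 0.33 (SE 0.28) in males. The test of the difference between the sexes gave 1.16 for H2-T10 (SE 0.38, edgeR unadjusted p = 0.0125, adjusted p = 0.99995) and 0.85 for H2-Q4 (SE 0.45). H2-T10 was the 1 member with an unadjusted p under 0.05, as were 2.18% of all tested genes. None of the 10 passed this interaction test, where 0.00753% of genes did. The 1 gene that passed was Hbb-bs, a beta globin of red blood cells. Of the 5 erythroid genes 2 passed, as higher, in dIEC against WT females, where 3 of all 13286 tested genes passed as higher. Both WT females lacked nearly all erythroid counts, as given above, there were 2 females per genotype, and the part of this in the female values of the chains was not tested. Females were also compared with males over both genotypes, and none of the 10 passed, where 0.0376% of genes did. The median log2 fold change of females over males was 0.12, with 9 of 10 above 0, as were 58.3% of all tested genes. With the proliferation score in the model it was -0.16, with 1 of 10 above 0, so no direction between the sexes is given for the chains.

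The partners of the chains were compared in the same way. The light chain B2m had 772, 768, 896, 1137 and 752 CPM in dIEC, against 859, 934, 698, 814 and 908 CPM in WT, with a log2 fold change of 0.034 (SE 0.17). Its coefficient of variation over the 10 libraries was 14.7%, against 36.2% for H2-K1 and 32.7% for H2-D1, so it varied less than the heavy chains it pairs with. Of the 14 genes of the light chain and of peptide loading, 0 passed, 7 were above 0 and 7 below, and the median was -0.0095. Within males 2 of 14 were above 0, as were 48.1% of all tested genes. Tap1, a subunit of the peptide transporter, had a log2 fold change of 0.47 (SE 0.28), Tapbp, which encodes tapasin, 0.26 (SE 0.28), and the immunoproteasome subunits Psmb8 and Psmb9 0.24 (SE 0.25) and 0.17 (SE 0.23).

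Regulators and related lists gave no gene past the threshold either. Of 16 regulators of class I transcription, 13 were above 0 with a median of 0.12. Nlrc5 was the most variable of the named genes other than H2-Ab1, with 9.19, 20.8, 4.94, 43.4 and 13.99 CPM in dIEC, against 17.0, 5.53, 6.65, 1.67 and 3.23 CPM in WT (log2 fold change 1.45, SE 0.75). Within the sexes its log2 fold change was 3.54 in females (edgeR adjusted p = 0.633) and 0.25 in males. Irf1, an interferon-induced activator of class I genes, gave 0.22 (SE 0.19) as its log2 fold change. Of 15 tested other class I and class I-like genes 13 were above 0 (median 0.18), and of 9 interferon receptors and kinases 6 were (median 0.072). All 16 tested interferon gamma response genes were above 0 (median 0.96), but by sex 16 of 16 were above 0 in females (median 2.48) and 8 of 16 in males (median -0.014), and none passed the test of the difference between the sexes. Of all tested genes, 55.4% were above 0 in females and 48.1% in males.

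Of 7 tested MHC class II genes, which epithelial cells and antigen-presenting cells can express, H2-Ab1 alone passed, as lower. The other 6 were above 0, and the median of the 7 was 1.42. In females the same number were above 0, with a median of 4.09, and in males 0 of 7 were, with a median of -0.17. Summed over the 7 genes, the class II level was 557, 1008, 134, 4760 and 2349 CPM in dIEC, against 1465, 585, 646, 161 and 310 CPM in WT. These sums include H2-Ab1, the gene deleted in dIEC, so the low sums of dIEC and WT libraries cannot be ranked against each other. dIEC female 7, highest for every class I chain, also had the highest class II sum. The part of these differences in the class I values was not tested.

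The third question was how the chains vary from mouse to mouse. They were correlated over the 10 libraries as log2 CPM, in 45 pairs, with permutation p-values adjusted over the 45. Of these, 31 pairs had an adjusted p under 0.05, all positive, with r between -0.022 and 0.981 over all pairs. By rank, 21 pairs had an adjusted p under 0.05. The lowest r among the 31 pairs was 0.665, and 11.7% of all pairs of tested genes had an r at least as high. The 6 chains with the highest levels (H2-K1, H2-D1, H2-Q2, H2-T3, H2-T23 and H2-Q1) varied together. All of their 15 pairs passed, with r of 0.711 to 0.981, of 0.613 to 0.973 without the 2 libraries farthest from the median of the first chain, and of 0.872 to 0.995 in the 6 males. Among the 4 chains with the lowest levels (H2-Q4, H2-T22, H2-Q7 and H2-T10) 3 of 6 pairs passed, and r ran from -0.463 to 0.794 without the 2 farthest libraries. The closest pair was H2-K1 and H2-D1 (r = 0.981, permutation adjusted p = 0.000112, n = 10), followed by H2-K1 and H2-T23 (r = 0.979). H2-Q1 and H2-Q2 (r = 0.978), which share sequence, came next.

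dIEC female 7 was the highest library for each of the 10 chains, and 11 of the 45 pairs passed without it. With library size only, 20 passed. All pairs share their libraries and scaling, so they are not independent. The genes outside the 10 with the highest r with H2-K1, among 8434 genes at a mean of at least 10 CPM, were BC017643 (0.988), Arel1 (0.983) and Hnrnpul2 (0.982). For H2-D1 they were Nsmf (0.976), Trp53bp2 (0.972) and Trafd1 (0.972), for H2-T3 Cdk18 (0.984), Dennd3 (0.983) and Xdh (0.982), and for H2-T23 Trim12a (0.977), Cep120 (0.976) and BC017643 (0.974), each over the 10 libraries.

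**Figure D4:**
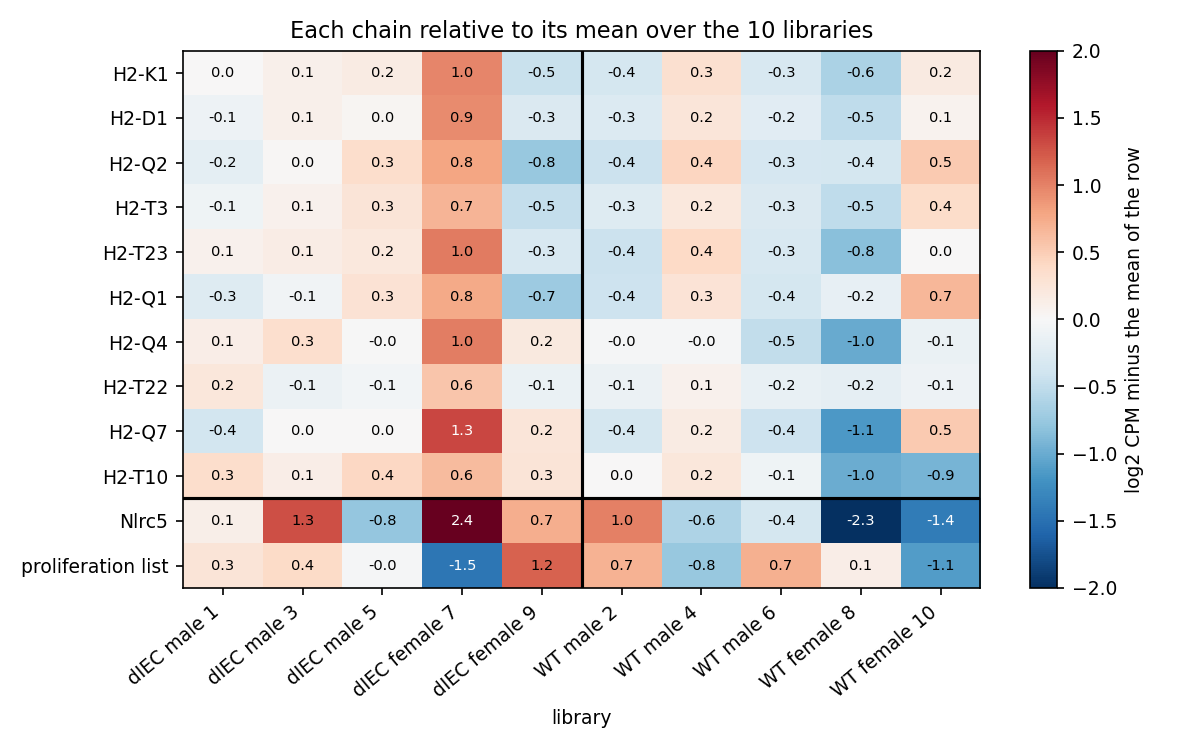
Log2 CPM of each chain in each library minus the mean of the chain over the 10 libraries, with Nlrc5 and the proliferation score below the line. dIEC female 7 is above the mean for all 10 chains and Nlrc5 and lowest for the proliferation score. The 6 upper chains move together, while H2-T10 is low in both WT females.

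The chains were then set against the proliferation score, since dividing cells of the intestine lie in the crypts and mature absorptive cells on the villi. In 6 of 10 chains the level was lower where the score was higher, with permutation p-values adjusted over 10 relations under 0.05. These were the 6 chains with the highest levels. Such a relation was common in these libraries, since 21.2% of the tested genes outside the score had an r at or below the -0.697 of H2-T23, the weakest of the 6. H2-Q1 had the strongest relation (r = -0.963, Spearman rho = -0.939, permutation adjusted p = 0.0002 for r and 0.0022 for rho, n = 10; r = -0.904 without the 2 farthest libraries). H2-Q2 followed (r = -0.935, rho = -0.891, permutation adjusted p = 0.0002 and 0.0063, n = 10; r = -0.877 without the 2 farthest). H2-T3 had r = -0.860 (rho = -0.794, permutation adjusted p = 0.00443 and 0.027, n = 10; r = -0.682 without the 2 farthest).

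For H2-K1 r was -0.811 (rho = -0.782, permutation adjusted p = 0.00823 and 0.027, n = 10; r = -0.664 without the 2 farthest). For H2-D1 it was -0.774 (rho = -0.685, permutation adjusted p = 0.0101 and 0.0693, n = 10; r = -0.600 without them), and for H2-T23 -0.697 (rho = -0.612, permutation adjusted p = 0.0395 and 0.0959, n = 10; r = -0.541 without them), so these last chains did not pass by rank. In the 6 males r ran from -0.819 to -0.891 over the 6 chains. H2-Q7 (r = -0.624), H2-T22 (r = -0.621), H2-Q4 (r = -0.352) and H2-T10 (r = 0.049) did not pass. By library size only, 2 of the 10 relations passed, so the count depends on the scaling.

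With Nlrc5 1 of the 10 relations passed, that of H2-Q4, whose r was reached by 0.211% of the other tested genes. H2-Q4 had r = 0.869 (rho = 0.770, permutation adjusted p = 0.0156 and 0.132, n = 10), and r = 0.576 without dIEC female 7 and WT female 8, the libraries with the most and the least Nlrc5, so it rests in part on those 2. H2-T10 had r = 0.739 (rho = 0.515, permutation adjusted p = 0.0666 and 0.671, n = 10). For H2-K1 r was 0.477 with all libraries and -0.525 without these 2, and for H2-D1 0.573 and -0.426. The sign of r for the classical chains thus depended on these 2 libraries.

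**Figure D5:**
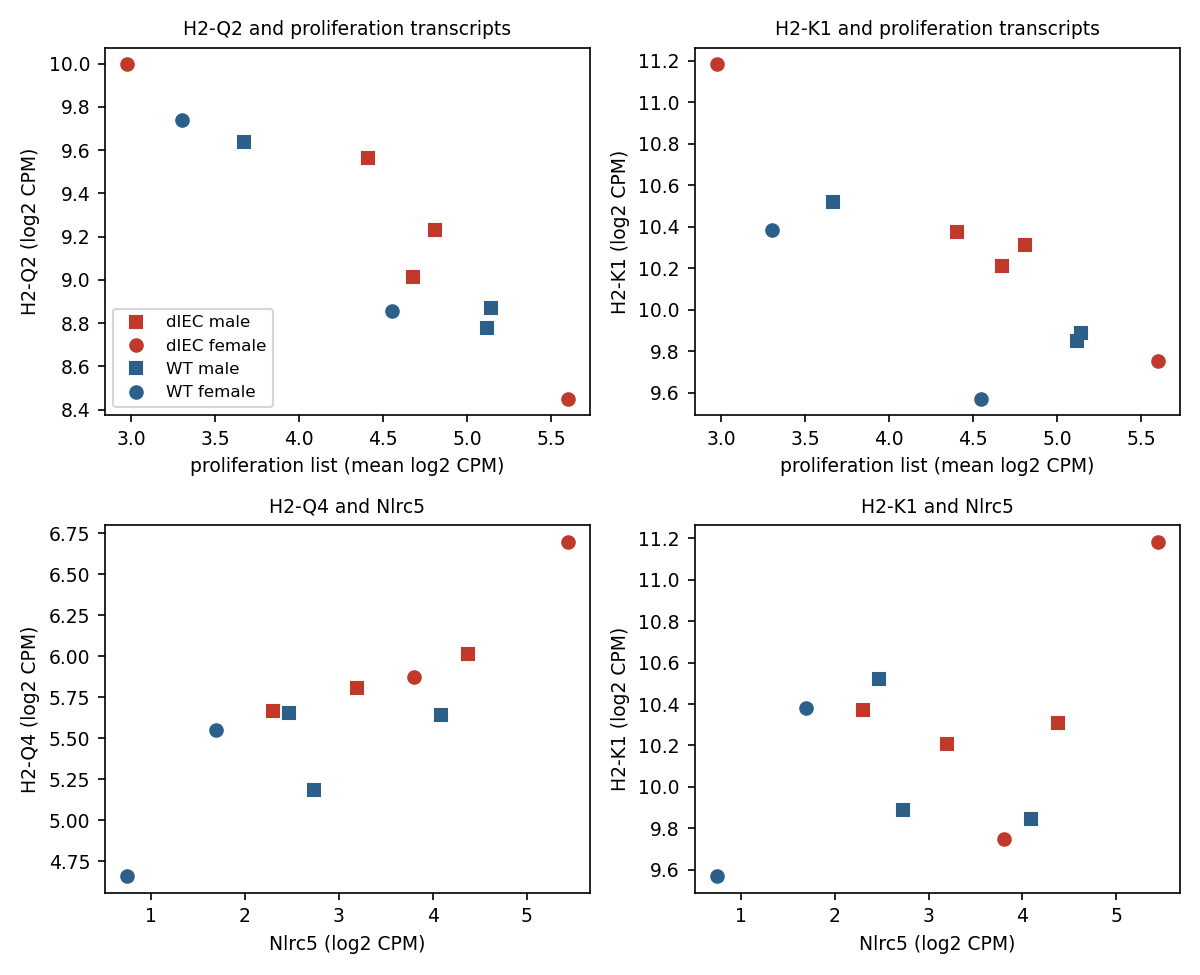
Log2 CPM of H2-Q2 and H2-K1 against the proliferation score (top) and of H2-Q4 and H2-K1 against log2 CPM of Nlrc5 (bottom), 1 point per library. H2-Q2 (r = -0.935) and H2-K1 (r = -0.811) are lower where the score is higher. H2-Q4 is higher where Nlrc5 is higher (r = 0.869), and H2-K1 shows no such order once the libraries at both ends are left out (r = -0.525).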

How the data were processed

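The 10 libraries are total RNA of sorted ileal epithelium from 1 mouse each, prepared with a strand-specific kit and ribosomal RNA depletion, per the labels' protocols. The values are raw counts per gene as deposited by the authors, and the submitters' processing notes name Novoalign and mm10. No source used here gives the counter, its strand setting or its annotation, so reads of overlapping or near-identical genes may be split or lost. Libraries of a group differed far more than counting allows (chi-square per degree of freedom 17.1 to 164), so all were kept as separate samples.

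The members and the gene lists were chosen with earlier results of these data known. Tests used edgeR 4.0.16 (robust quasi-likelihood, TMM scaling) in R 4.3.3 on sex plus genotype, with a product term for the interaction and a 4-group model within the sexes. Of the genes, 13286 (95.4%) passed filterByExpr, and a Benjamini-Hochberg adjusted p under 0.05 over all of them was the threshold. The code was tested on simulated counts. CPM was computed on TMM-scaled totals, with a prior count of 2 on the log2 scale. Correlations used two-sided permutation tests with 100000 resamples. Lengths and shared 50-base words come from GENCODE on GRCm38 (mm10), and upstream sequences from RefSeq. The depth was 9174101 to 13484363 counts per library, and the precision of the tests rests on 5 mice per genotype. The genes named are the 10 members, H2-Ab1, 7 partners and regulators (1 more in the rule is not reported here), and the 3 genes with the highest r for each of 4 chains. Alternatives included DESeq2-style size factors, library size only, no filter, DESeq2 1.42.0, limma voom (limma 3.58.1), other covariates, males alone, other lengths, and leaving out each library. The coding-transcript length and all alternatives for the correlations were chosen after seeing the data.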

Additional observations from a re-analysis of the deposited data

Results flagged for a closer look

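Of 36 groups of 5 libraries examined (10 chains and 8 related genes, each genotype), 6 held a library whose gap to its nearest neighbour was large for the range of the group, where chance gives about 1.8. In 5 of them it was dIEC female 7, the library with the lowest proliferation score. Its level was 1430 CPM for H2-D1, where the next dIEC library had 803 CPM. It was 103.8 CPM for H2-Q4 (next 64.7 CPM), 30.85 CPM for H2-Q7 (next 14.5 CPM) and 300.5 CPM for H2-T23 (next 170.4 CPM). For the regulator Irf1 it was 528.8 CPM (next 325 CPM). The sixth was WT male 4, with 22.02 CPM for H2-T22 (next 19.4 CPM). What sets dIEC female 7 apart was not tested.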

How the results depend on the processing

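No paired analysis was possible because the genotypes share no replicate numbers in the labels. None of the 10 chains passed the threshold in any of the 3 comparisons under any alternative run (lowest edgeR, DESeq2 or voom adjusted p 0.117 for genotype, 0.170 for sex and 0.172 for the interaction). Over all genes, the genotype comparison called 2, and 4 with the proliferation score in the model. The sex comparison called 5, 11 by DESeq2 and 479 with the proliferation score. The interaction called 1, 0 by library size only, 0 by limma voom, 17 by DESeq2, 13 with the proliferation score, and 0 to 1 when 1 library was left out. H2-K1, H2-D1 and H2-Q2 together held 84.2% of the summed level with the longest transcript as length and 81.3% with the longest coding transcript. By library size only, 20 pairs of chains, 3 relations with Nlrc5 and 2 with the proliferation score passed. Leaving out 1 library gave 11 to 37 pairs, 0 to 2 relations with Nlrc5 and 3 to 7 with the proliferation score.

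Some fold changes changed sign, and the cause was not tested. Females over males, by library size only, they were -0.00365 for H2-Q4, -0.00194 for H2-T3, -0.00424 for H2-T22 and -0.0601 for H2-T23, and by limma voom -0.0313 for H2-T23. With the proliferation score they were -0.237 for H2-K1, -0.121 for H2-D1, -0.0850 for H2-Q1, -0.246 for H2-Q2, -0.0834 for H2-Q4, -0.206 for H2-T3, -0.0390 for H2-T22 and -0.3005 for H2-T23. Leaving out 1 library gave log2 fold changes, dIEC over WT, of H2-Q1 -0.187 to 0.235 and H2-Q2 -0.147 to 0.294. Females over males gave H2-K1 -0.271 to 0.315, H2-D1 -0.203 to 0.313, H2-Q2 -0.167 to 0.412, H2-Q4 -0.203 to 0.281, H2-T3 -0.168 to 0.286, H2-T22 -0.115 to 0.167 and H2-T23 -0.363 to 0.21. The interaction gave H2-K1 -0.416 to 0.971, H2-D1 -0.139 to 1.04, H2-Q1 -1.13 to 0.321, H2-Q2 -1.01 to 0.491, H2-T3 -0.605 to 0.543, H2-T22 -0.0355 to 0.605 and H2-T23 -0.151 to 1.16. Depth limits H2-T10 most, at 33 to 111 counts per library.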
